A study of Mus musculus with 6 samples.

Results

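The annexins and the Ahnak scaffold genes were followed on 6 microarrays of the mouse macrophage line RAW264.7. The set lists 10 genes by name, 8 annexins (Anxa1 to Anxa7 and Anxa11) and the pair Ahnak and Ahnak2, and 9 of the 10 have a probe set among the 16387 named genes of the deposited table. Anxa11 was not analysed here. The members were chosen by family name with their log2 levels on all 6 arrays already known, by clone and by array number, so those levels are given as a description, with no test.

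One group of 3 arrays came from a RAW264.7 clone (clone 8) stably transfected with a vector carrying Ms4a8a, which encodes a relative of the B-cell antigen CD20. The other 3 arrays came from a clone (clone 3) transfected with the empty vector. Both were selected with blasticidin and kept for 48 h in serum-containing medium, with no other agent named for either. Each group is 1 clone, so transgene and clone cannot be told apart, and the labels do not tell whether a clone was cultured once or 3 times for its arrays. The p-values given further down therefore cover array-to-array spread only, part or all of which may be technical. Arrays are called by the number in their titles.

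Annexins are proteins that bind phospholipid membranes in the presence of calcium, through a conserved core of repeats, and differ mainly in the head that precedes it. In macrophages they take part in membrane traffic, phagocytosis, repair of the plasma membrane and the control of inflammation. Ahnak and Ahnak2 are giant scaffold proteins of the cell cortex, and Ahnak is anchored at the membrane through a complex of annexin A2 with its S100 partner, S100a10.

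Ms4a8a itself read 7.40, 7.90 and 8.15 on the Ms4a8a arrays and 3.07, 3.32 and 3.22 on the vector arrays, in log2 units, and limma called the difference (log2 4.61, adjusted p = 0.0121), in the direction the labels give. Array 3 stood apart from arrays 1 and 2 in both clones. Of all genes, 22.3% were higher on both arrays 3 than on the other 4 arrays and 28.4% were lower on both. Macrophage markers were present, with 9 of 10 at or above the median gene and Mertk near the bottom of the scale. The mean log2 level over those 10 genes was 10.2, 10.1 and 10.8 on the Ms4a8a arrays and 10.1, 10.1 and 10.8 on the vector arrays. Among markers of granulocytes (6 measured), lymphocytes (6) and fibroblasts or epithelium (11), 0 reached the median gene. Signals of different probe sets are not compared as transcript amounts here, since probes differ in how strongly they bind.

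Anxa1, Anxa2 and Anxa5 read nearly the same on all 6 arrays. Their signals lay above those of at least 98.9% of the named genes on every array, and no saturation flag was available here. Anxa1, an anti-inflammatory annexin known to be induced by glucocorticoids and to act through formyl peptide receptors, read 12.82, 12.51 and 12.55 on the Ms4a8a arrays, against 12.42, 12.24 and 12.63 on the vector arrays. Anxa2, which pairs with S100a10 and binds actin and plasminogen, read 12.50, 12.45 and 12.51 on the Ms4a8a arrays, against 12.65, 12.59 and 12.42 on the vector arrays. Anxa5, widely used as a probe for exposed phosphatidylserine, read 13.24, 12.93 and 13.08 on the Ms4a8a arrays, against 12.90, 12.82 and 13.04 on the vector arrays. The full range over the 6 arrays was 0.58 for Anxa1, 0.22 for Anxa2 and 0.42 for Anxa5, and the clones overlapped for each. Of all pairs of members Anxa1 and Anxa5 were nearest, with a root mean square difference of 0.063 log2 units over the 6 arrays. Each gene was first centred on its own mean. Anxa1 averaged 12.63 ± 0.17 in the Ms4a8a clone and 12.43 ± 0.19 in the vector clone (SD, n = 3 each), and Anxa2 averaged 12.49 ± 0.03 in the Ms4a8a clone and 12.55 ± 0.12 in the vector clone. For Anxa5 the Ms4a8a clone averaged 13.08 ± 0.16 and the vector clone 12.92 ± 0.11.

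The promoters of Anxa1 and Anxa2 are shown because these genes kept a like level on every array, to be read beside those of members that did not. The sequences are the 250 bases before a transcript start in RefSeq's mouse build GRCm38.p6, 5′ to 3′ in the direction of the gene, for Anxa1 at chr19:20390672-20390921 (minus strand) and for Anxa2 at chr9:69453433-69453682 (plus strand). Capitals mark matches, on either strand, to a TATA box (TATAAA), an AP-1 site (TGANTCA), a GC box (GGGCGG), a PU.1 core (GAGGAA) or an E-box (CACGTG).
Anxa1: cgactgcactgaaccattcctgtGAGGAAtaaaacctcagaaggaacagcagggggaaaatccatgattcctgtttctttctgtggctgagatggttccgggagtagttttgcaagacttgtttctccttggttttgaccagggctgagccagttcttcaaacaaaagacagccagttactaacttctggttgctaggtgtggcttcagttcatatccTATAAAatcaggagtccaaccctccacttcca
Anxa2: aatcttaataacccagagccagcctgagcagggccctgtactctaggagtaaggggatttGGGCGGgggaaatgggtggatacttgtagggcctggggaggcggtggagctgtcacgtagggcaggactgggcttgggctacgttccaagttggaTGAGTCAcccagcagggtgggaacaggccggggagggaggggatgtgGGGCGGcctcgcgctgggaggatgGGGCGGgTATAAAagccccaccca
Both windows hold TATAAA, with its first base at -32 for Anxa1 and at -17 for Anxa2, counted back from the start. TATAAA was found in 12.4% of the 32851 RefSeq windows of that length. The Anxa2 window also holds 1 AP-1 site, a motif found in 6.75% of windows, and 3 GC boxes, found in 32.7%. The Anxa1 window holds 1 PU.1 core, found in 23.3%. The Anxa5 window, chr3:36475888-36476137 on the minus strand, holds none of these letters.

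The other 6 members were higher on array 3 of both clones than on all 4 remaining arrays, 6 of 9 members against 22.3% of all genes. Array 3 lay at least 1 log2 unit above the mean of arrays 1 and 2 in both clones for 5 of the 9, namely Anxa3, Anxa4, Anxa6, Ahnak and Ahnak2, against 3.73% of all genes. Nothing is read from these counts, since the members were listed with these levels known. The median of that gap over the 9 members was 1.33 in the Ms4a8a clone and 1.19 in the vector clone, while over all genes it was -0.02 in the Ms4a8a clone and -0.04 in the vector clone.

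Anxa3 showed the widest spread of the annexins. This annexin is known from neutrophils, where it associates with phagosomes. It read 6.69, 6.48 and 11.44 on the Ms4a8a arrays, against 8.10, 7.76 and 11.41 on the vector arrays. Array 3 was far above the others in each clone, by 4.85 log2 units (28.9-fold) in the Ms4a8a clone and by 3.49 (11.2-fold) in the vector clone. Arrays 1 and 2 of a clone were within 0.21 of each other in the Ms4a8a clone and within 0.34 in the vector clone. Ranked by the smaller of the gaps in the 2 clones, Anxa3 was number 15 of 16387 genes.

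Ahnak2, the less studied of the giant scaffolds, had the other very wide spread. It read 6.26, 4.94 and 9.84 on the Ms4a8a arrays, against 5.16, 4.99 and 9.43 on the vector arrays. Array 3 was 4.24 log2 units above the mean of arrays 1 and 2 in the Ms4a8a clone (19.0-fold) and 4.35 above it in the vector clone (20.4-fold), and the gene was number 6 of 16387 in the same ranking. Its lowest reading lay above 39.7% of named genes, so the fold can be understated. Array 1 of the Ms4a8a clone was 1.32 above array 2 of that clone, while arrays 1 and 2 of the vector clone differed by 0.17.

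Anxa6, whose core is a duplicated set of annexin repeats and which is known for binding cholesterol-rich membranes, read 6.89, 6.61 and 9.26 on the Ms4a8a arrays, against 6.71, 6.56 and 8.41 on the vector arrays. Anxa4, a membrane-binding annexin best known from epithelial cells, read 10.19, 9.61 and 11.59 on the Ms4a8a arrays, against 9.23, 9.18 and 11.13 on the vector arrays. For Anxa6 array 3 was 5.71-fold above the mean of arrays 1 and 2 in the Ms4a8a clone and 3.43-fold above it in the vector clone. For Anxa4 it was 3.23-fold above that mean in the Ms4a8a clone and 3.80-fold above it in the vector clone. Anxa4 and Anxa6 were each other's nearest members, with a root mean square difference of 0.32.

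Ahnak read 9.25, 8.64 and 10.27 on the Ms4a8a arrays, against 9.11, 8.84 and 10.16 on the vector arrays. Anxa7, also called synexin, which promotes fusion of membranes and binds sorcin, read 8.78, 8.68 and 9.72 on the Ms4a8a arrays, against 8.68, 8.78 and 9.63 on the vector arrays. Their gaps at array 3 were smaller than those of Anxa3 and Ahnak2, at 1.33 in the Ms4a8a clone and 1.19 in the vector clone for Ahnak, and 0.99 in the Ms4a8a clone and 0.90 in the vector clone for Anxa7. Ahnak and Anxa7 were nearest to each other, at 0.23. By root mean square difference Ahnak lay nearer to Anxa7 than to its relative Ahnak2, whose nearest member was Anxa3 at 0.84. That measure is not scaled, so it counts the size of the gap at array 3 as well as its direction. In the Ms4a8a clone arrays 1 and 2 were 0.62 apart for Ahnak and 1.32 for Ahnak2, against 0.10 for Anxa7. Which of these genes rose and fell together was not tested.

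**Figure D1:**
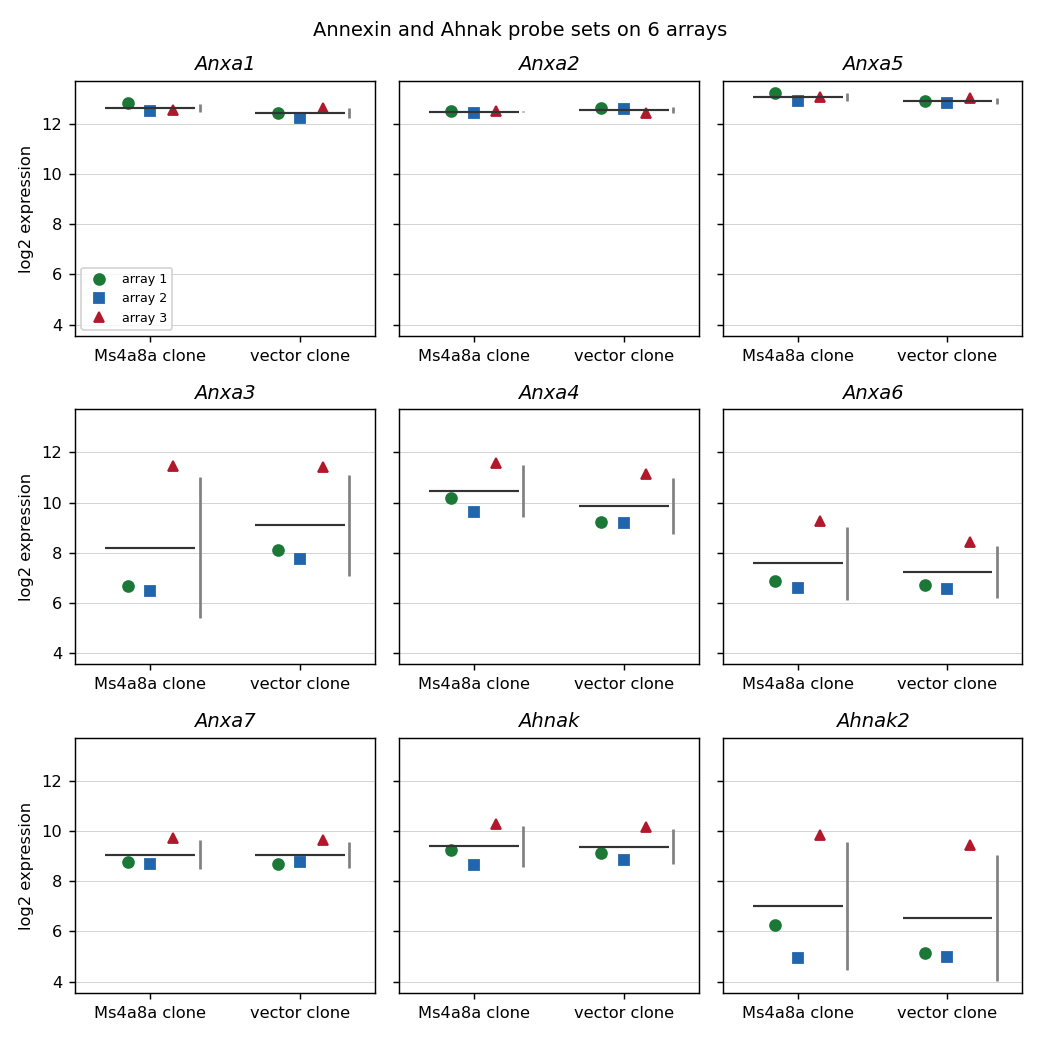
Log2 expression of each annexin and Ahnak probe set on the 3 arrays of the Ms4a8a clone and the 3 arrays of the vector clone, with array numbers marked by symbol, horizontal lines at the mean and vertical bars for the SD (n = 3). Anxa1, Anxa2 and Anxa5 stay within 0.58 log2 units over all arrays, while for the other 6 genes array 3 is the highest of its clone.

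Windows of the Ahnak genes and of Anxa4 are shown as those of members higher on array 3, with the same motifs in capitals. They lie at chr6:86793585-86793834 (minus strand) for the more upstream of the starts listed for Anxa4, chr19:8989034-8989283 (plus strand) for Ahnak and chr12:112795743-112795992 (minus strand) for Ahnak2, whose listed start lies inside the annotated span of the gene.
Anxa4: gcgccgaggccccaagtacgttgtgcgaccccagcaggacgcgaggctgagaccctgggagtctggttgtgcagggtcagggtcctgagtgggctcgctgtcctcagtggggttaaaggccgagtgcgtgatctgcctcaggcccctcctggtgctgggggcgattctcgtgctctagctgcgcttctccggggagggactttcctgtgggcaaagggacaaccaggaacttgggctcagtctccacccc
Ahnak: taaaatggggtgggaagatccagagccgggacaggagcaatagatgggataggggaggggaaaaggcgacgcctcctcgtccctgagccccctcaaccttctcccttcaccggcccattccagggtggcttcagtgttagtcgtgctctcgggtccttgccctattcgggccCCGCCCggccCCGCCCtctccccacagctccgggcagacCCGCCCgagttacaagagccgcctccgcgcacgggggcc
Ahnak2: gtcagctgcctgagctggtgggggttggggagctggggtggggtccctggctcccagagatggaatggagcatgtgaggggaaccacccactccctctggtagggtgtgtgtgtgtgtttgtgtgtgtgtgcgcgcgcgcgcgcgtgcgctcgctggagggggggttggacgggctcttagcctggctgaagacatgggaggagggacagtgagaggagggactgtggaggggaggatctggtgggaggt
The Ahnak window holds 3 GC boxes, and the Anxa4 and Ahnak2 windows hold no match to any of the motifs. The overlapping windows of Anxa7, not shown, hold 1 and 4 GC boxes. The window with 4 also holds 1 E-box, a motif found in 6.02% of windows. TATAAA was found for Anxa1 and Anxa2 and not in the windows of Anxa4, Anxa5, Anxa7, Ahnak or Ahnak2, so the members with nearly flat levels did not share it. The share of G or C was 46.0% for Anxa1, 62.4% for Anxa2 and 58.8% for Anxa5. Among the members higher on array 3 it was 66.4% for Ahnak, 65.2% for Ahnak2, 64.8% and 42.0% for the windows of Anxa4, and 42.4% and 62.0% for those of Anxa7, against a median of 52.4% over all windows. These ranges overlap. In all, 8 of the 10 listed genes had a window in the RefSeq table, the exceptions being Anxa3 and Anxa6. A match to so short a motif is a description of the window and not a bound site.

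**Figure D2:**
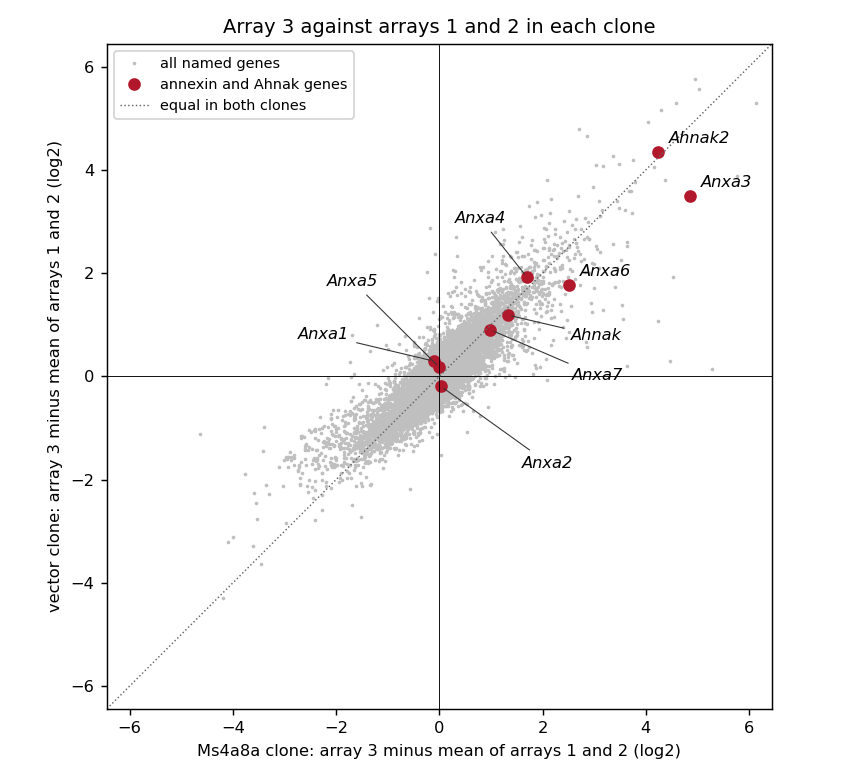
Difference between array 3 and the mean of arrays 1 and 2, in log2 units, in the Ms4a8a clone (horizontal axis) and the vector clone (vertical axis), with a grey point for each of 16387 genes, red points for the annexin and Ahnak genes and a dotted line where the clones are equal. Ahnak2 (4.24 in the Ms4a8a clone and 4.35 in the vector clone) and Anxa3 (4.85 and 3.49) lie at the upper right, and Anxa1, Anxa2 and Anxa5 near the origin.

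Other genes were, like Anxa3 and Ahnak2, far higher on array 3 of both clones. Nearest to Anxa3 over the 6 arrays were Exoc3l2, a relative of an exocyst subunit (root mean square difference 0.51), H2-Ob, a subunit of an MHC class II chaperone (0.52), and Basp1, a membrane-attached cytoskeletal protein (0.57). Their differences between the clones were not all like those of Anxa3 (-1.40, -1.27 and 0.03 at arrays 1, 2 and 3). They were -0.84, -1.27 and -0.48 for Exoc3l2, -0.69, -0.18 and -1.07 for H2-Ob, and 0.04, -0.39 and -0.11 for Basp1. Nearest to Ahnak2 were Ltc4s, the leukotriene C4 synthase (0.35), the carbonyl reductase Cbr2 (0.38) and the Fc receptor Fcgr4 (0.44). Of the 10 macrophage markers, 7 were highest on both arrays 3, while Lyz2, Fcgr1 and Mertk were not. Adgre1 and Itgam had the widest ranges of the list. Adgre1, which encodes F4/80, read 7.33, 7.36 and 9.46 on the Ms4a8a arrays and 6.76, 7.05 and 9.39 on the vector arrays, and the integrin subunit Itgam read 7.15, 6.19 and 8.33 on the Ms4a8a arrays and 7.57, 7.02 and 9.36 on the vector arrays. Csf1r, the receptor for the macrophage growth factor CSF-1, stayed within 0.32 over the 6 arrays. The part of these markers in the levels of the annexins was not tested. In RNA from a whole culture, fewer cells of a kind and less RNA per cell cannot be told apart.

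Between the clones, the members are described by their levels alone. The clones overlapped for all 9 members when numbers were ignored, while 7.88% of all genes did not overlap (3.89% higher and 3.99% lower in the Ms4a8a clone). The median difference, Ms4a8a minus vector, was 0.16 over the members and -0.005 over all genes.

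Anxa3 was lower in the Ms4a8a clone on arrays 1 and 2 but not on array 3. The difference at arrays 1, 2 and 3 was -1.40, -1.27 and 0.03. Over arrays 1 and 2 alone it was -1.34, which is 2.53-fold lower in the Ms4a8a clone. Over all arrays Anxa3 averaged 8.21 ± 2.80 in the Ms4a8a clone and 9.09 ± 2.02 in the vector clone (SD, n = 3 each), a difference of -0.88 that is smaller than either SD. With same-numbered arrays of both clones left out together, the difference was -0.62 without number 1, -0.69 without number 2 and -1.34 without number 3.

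Anxa4, Anxa5 and Anxa6 were higher in the Ms4a8a clone at every array number, with arrays matched by their labels. The share of all genes with 1 direction at every number was not counted. The differences of Anxa4 were 0.96, 0.43 and 0.46, and its means were 10.46 ± 1.02 in the Ms4a8a clone and 9.85 ± 1.11 in the vector clone (SD, n = 3 each). The differences were 0.34, 0.11 and 0.04 for Anxa5, and 0.18, 0.05 and 0.85 for Anxa6. Anxa6 thus differed most on array 3, where Anxa3 differed least, and whether these patterns differ from each other was not tested. The smallest differences of Anxa5 and Anxa6 were below the gaps between arrays 1 and 2 of the Ms4a8a clone (0.32 and 0.28). For Anxa6, array 2 of the Ms4a8a clone (6.61) read below array 1 of the vector clone (6.71). Ahnak2 differed by 1.10 at array 1, by -0.06 at array 2 and by 0.41 at array 3.

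Ahnak and Anxa7 showed no common direction between clones. Ahnak differed by 0.15, -0.21 and 0.11 at the 3 numbers, and averaged 9.39 ± 0.83 in the Ms4a8a clone and 9.37 ± 0.70 in the vector clone. Anxa7 differed by 0.10, -0.10 and 0.08, and averaged 9.06 ± 0.57 in the Ms4a8a clone and 9.03 ± 0.52 in the vector clone (SD, n = 3 each). Anxa6 averaged 7.59 ± 1.46 in the Ms4a8a clone and 7.23 ± 1.03 in the vector clone, and Ahnak2 averaged 7.01 ± 2.54 in the Ms4a8a clone and 6.53 ± 2.51 in the vector clone. Each of these SDs exceeds the difference between the clones.

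**Figure D3:**
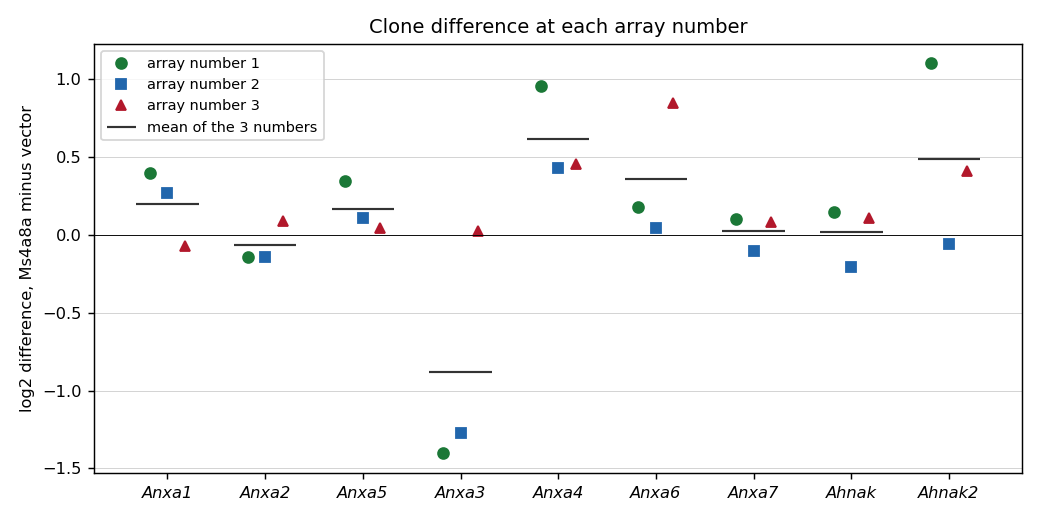
Log2 difference between the Ms4a8a clone and the vector clone for each annexin and Ahnak gene at array numbers 1, 2 and 3 (symbols), with a line at the mean of the 3. Anxa3 is at -1.40 and -1.27 for numbers 1 and 2 and at 0.03 for number 3, and Anxa4 lies above 0 at all 3.

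Genes that work with annexins and Ahnak were looked at in 7 lists, of which 64 of 79 genes were measured. In the limma model without the block 0 of the 64 passed (0.0427% of all genes did), with 7 at an unadjusted p under 0.05 (3.20% of all genes). With the array number as a block, which compares same-numbered arrays, 1 passed and 63 did not (0.909% of all genes passed), with 14 at an unadjusted p under 0.05 (13.3% of all genes). A single call among 64 genes is near that background. The one that passed was Capn2, the large subunit of the calcium-activated protease m-calpain, which acts in remodelling of the cortex and in membrane repair. Capn2 read 10.45, 10.28 and 10.41 on the Ms4a8a arrays, against 9.52, 9.72 and 9.54 on the vector arrays. Every Ms4a8a array was above every vector array, as for 3.89% of all genes. Capn2 was 1.73-fold higher in the Ms4a8a clone (log2 difference 0.79, SE 0.098, blocked limma adjusted p = 0.0301, and 0.215 without the block). The blocked call was lost without array 1 of both clones (adjusted p = 0.0975). The block takes the pairing of arrays 1 and 2 across the clones from their labels alone.

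The rest of that list did not pass. It holds the calpains and the penta-EF-hand proteins, small calcium sensors that bind annexins, and had 10 measured genes, 6 with a positive difference (median 0.06, against -0.005 over all genes). Pdcd6, also called ALG-2 and a partner of annexins A7 and A11, differed by -0.01, the shared small calpain subunit Capns1 by 0.10 and Capn1 by -0.42 (blocked adjusted p = 0.129). Gca, which encodes grancalcin, lay outside the naming rule and was chosen after its values were seen. It read 2.68, 2.83 and 2.71 on the Ms4a8a arrays, against 3.77, 4.04 and 5.36 on the vector arrays, without overlap (log2 difference -1.65, SE 0.30, blocked adjusted p = 0.0831). Without the block Gca was far from the threshold. The Ms4a8a readings were near the bottom of the scale, where the lowest lay above 1.98% of genes.

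Ferlins and other membrane repair genes had 14 measured members, of which 8 had a positive difference (median 0.01) and 0 passed with or without the block. Myof, which encodes the membrane fusion and repair protein myoferlin, read 9.83, 9.24 and 9.47 on the Ms4a8a arrays, against 8.18, 8.49 and 8.52 on the vector arrays. The clones did not overlap, and the log2 difference was 1.12 (SE 0.17, blocked limma adjusted p = 0.0625, and 0.496 without the block). Myof passed the blocked model without the arrays of any 1 number, at adjusted p from 0.0437 to 0.0470. Ehd2, an ATPase at caveolae, differed by -0.75 (blocked adjusted p = 0.0973), and the ESCRT genes Vps4b and Chmp4b by 0.01 and 0.06.

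S100 proteins, a family of small proteins with annexin partners among them, had 13 measured members, of which 8 had a positive difference (median 0.03) and 0 passed. S100a10, the partner of Anxa2 and Ahnak, is named outside the rule and after its values were seen. It read 12.92, 13.06 and 12.39 on the Ms4a8a arrays, against 12.82, 13.08 and 12.13 on the vector arrays, lowest on array 3 in both clones, where Ahnak was highest. The clone difference of S100a10 was 0.11 (blocked adjusted p = 0.641). S100a4 and S100a6 differed by -0.03 and 0.02, S100a1 by 0.47 (blocked adjusted p = 0.0861) and S100a3 by 0.43 (0.555). S100a4 was also lower on array 3 than the mean of arrays 1 and 2, by -0.46 in the Ms4a8a clone and -0.52 in the vector clone. S100a1 was higher there, by 0.85 in the Ms4a8a clone and 0.69 in the vector clone. The signal of S100a4 lay above at least 99.9% of genes on every array, at the top of the scale. Actb, also near the top, shifted alike on array 3 (-0.50 in the Ms4a8a clone and -0.47 in the vector clone). The part of the scale in these shifts was not tested. Of the 13, 5 were lowest on both arrays 3 and 2 were highest, against 28.4% and 22.3% of all genes.

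The remaining lists gave 0 calls with or without the block. Among the 4 other annexins measured (median difference -0.05), Anxa9 differed by -0.03 and Anxa8 by -0.07, and Anxa9 read between 6.51 and 6.84 on all arrays. The 4 measured formyl peptide receptor genes, receptors of Anxa1 among them, were all below the median gene (median difference 0.03), with Fpr2 at -0.08 and Fpr-rs4 at 0.16. Of 10 genes for phosphatidylserine exposure 7 had a positive difference (median 0.04), including the scramblase Ano6 (0.33, blocked adjusted p = 0.194) and the flippase subunit Tmem30a (0.07), while the flippase Atp11b differed by -0.14. Of 9 measured binding partners of Ahnak 4 had a positive difference (median -0.03), and Actb, Ppp2r1a and Prkca differed by -0.04, -0.03 and -0.26.

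**Figure D4:**
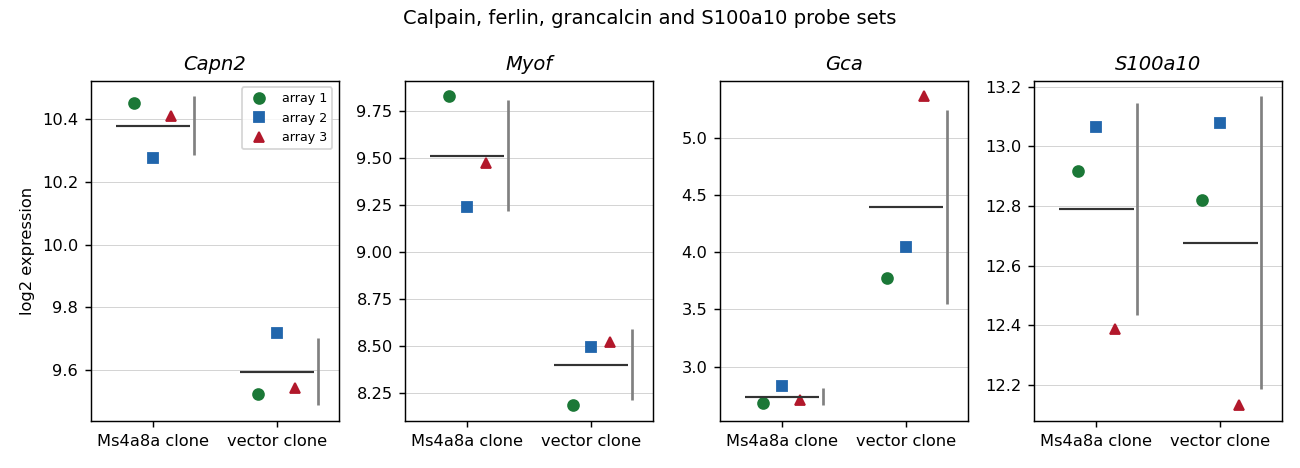
Log2 expression of Capn2, Myof, Gca and S100a10 on the 3 arrays of the Ms4a8a clone and the 3 arrays of the vector clone, with array numbers by symbol, lines at the mean and bars for the SD (n = 3), and a separate vertical scale in each panel. Capn2 and Myof are higher and Gca is lower on every Ms4a8a array, and S100a10 is lowest on array 3 of each clone.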

How the data were processed

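Total RNA of 6 RAW264.7 samples was labelled with biotin by the Affymetrix procedure, per the labels' protocols. The authors' deposited table holds log2 values, 1 per probe set and array. Sorted, its 6 columns are identical, as after quantile normalisation. How probes were summarised and background corrected, and with which software, is not given in the sources used here. Precision is limited by the number of arrays.

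Of 17370 probe sets, 16387 had 1 gene symbol and were used, 919 had none and 64 were controls. Probe sets are numbered by gene ID, and 1773 old symbols were replaced by those of RefSeq's GRCm38.p6 (29 IDs were not found). All 16387 genes were fitted with limma 3.58.1 in R 4.3.3 (lmFit and eBayes, statmod 1.5.0, no filter, two-sided, Benjamini-Hochberg over all genes, threshold 0.05) as Ms4a8a minus vector, and again with the array number as a block. The fits were also run on simulated data, built with array numbers as true pairs and otherwise independent arrays. That run therefore cannot check the pairing or the independence of the arrays. Same-numbered arrays of the clones deviated together from their clone means (correlations 0.709, 0.809 and 0.865, limit 0.1). The numbers were taken as pairs from the labels, and the source names pair the arrays in the same way. Arrays 1 and 2 also correlated across numbers (0.713 and 0.617), so these correlations cannot tell how arrays 1 and 2 pair between the clones.

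The members and lists were chosen with earlier results of these data known. All members are named. From the other lists, genes past the threshold are named, with the 2 of highest level and the 2 of largest difference among genes no lower than the median gene. Likeness is the root mean square difference over the 6 arrays between genes centred on their means and not scaled, so the size of a change counts. Promoters are RefSeq's, without the 50 bases after the start. Alternatives were the block, arrays left out, level filters, array weights and a variance trend.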

Additional observations from a re-analysis of the deposited data

Results flagged for a closer look

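Only the members and the named partner genes were searched for opposite shifts of array 3 in the clones. Among them, Anxa2 and 3 partner genes went opposite ways when array 3 was set against arrays 1 and 2. Both gaps of a clone had like sign for each. The share of all genes with such a pattern was not counted, so nothing is read from how many were found. The difference between the clones was not tested. For Anxa2 array 3 was 0.034 above the mean of arrays 1 and 2 in the Ms4a8a clone and lower in the vector clone (-0.20), both within the small range of this gene. S100a3, an S100 protein, was 0.65 above that mean in the Ms4a8a clone and below it in the vector clone (-0.67). Pdcd6 differed by 0.093 in the Ms4a8a clone and by -0.021 in the vector clone, and Vps4b by -0.080 in the Ms4a8a clone and 0.16 in the vector clone.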

How the results depend on the processing

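Limma called 7 of all genes and 0 of the 64 partner genes without the block, and 149 and 1 (Capn2) with it. With the block the counts were 101 and 2 (Myof and Ehd2) without array 1 of both clones, 104 and 2 (Capn2 and Myof) without array 2, and 434 and 4 (Gca, Capn2, Myof and Smad3) without array 3. Without the block they were 147 and 1 (Gca) for arrays 1 and 2 alone, an alternative added after the data were seen, 47 and 1 (Capn2) with array weights, 1 and 0 with the genes under the median level left out, 7 and 0 with the genes under the 25th percentile left out and 9 and 0 with a variance trend. Leaving out single arrays gave 0 to 8 calls among all genes, 0 without Ms4a8a array 2, vector array 1 or vector array 3 (447, 330 and 783 genes at an unadjusted p under 0.05), and 0 among the partner genes. The cause of these shifts was not tested.

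Of 355 refitted differences of the named partner genes, 312 kept their direction and side of the threshold, 10 passed where they had not, and 33, none of them called, turned sign. With single arrays left out these ran from -0.042 to 0.027 for Pdcd6, -0.056 to 0.060 for Vps4b, -0.099 to 0.054 for Anxa9, -0.077 to 0.013 for Ppp2r1a, -0.16 to 0.31 for S100a10, -0.13 to 0.0036 for Anxa8, -0.21 to 0.12 for S100a4, -0.13 to 0.22 for Chmp4b, -0.096 to 0.32 for Tmem30a, -0.20 to 0.12 for Actb and -0.0052 to 0.073 for S100a6. With the block, those that turned were S100a6 (-0.019), Pdcd6 (0.026), Vps4b (-0.015), Tmem30a (-0.041) and Ppp2r1a (0.024) without array 1 of both clones, Vps4b (-0.053) without array 2, and Anxa8 (0.035) and S100a3 (-0.0083) without array 3. With array weights they were Anxa9 (0.049) and Anxa8 (0.048), and for arrays 1 and 2 alone Anxa8 (0.035) and S100a3 (-0.0083). The members' differences, given without a test, moved in all 90 refits by less than the SD pooled over both clones, and array 3 sets that SD for 6 of the members. With 3 arrays per clone, leaving out a single array cannot move a difference by that much, so this is no sign of stability. With same-numbered arrays of both clones left out together, the differences of Anxa3 (-0.62, -0.69 and -1.34 without numbers 1, 2 and 3), Anxa6 (0.45, 0.51 and 0.11) and Ahnak2 (0.18, 0.76 and 0.52) kept their sign, while those of Ahnak (-0.047, 0.13 and -0.029) and Anxa7 (-0.0088, 0.092 and -0.00098) turned. Leaving out 1 array of a single clone unbalances the numbers, and Ahnak2 then ran from -0.93 to 1.94 and Anxa3 from -2.50 to 0.28. Anxa6 (-0.48 to 0.95), Ahnak (-0.43 to 0.41) and Anxa7 (-0.30 to 0.33) also turned sign. Anxa1, Anxa2, Anxa4 and Anxa5 kept theirs.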
